A study of Mus musculus with 3 samples.

Results

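The 9 genes described here are P2ry12, P2ry13, Gpr34, Tmem119, Sall1, Siglech, Olfml3, Fcrls and Mef2c, a set known from healthy microglia and often called homeostatic microglia genes. They were chosen by name, as the rows with these symbols, and make up 9 of the 32285 features of each count matrix. All 9 symbols were found once. The levels come from single-cell RNA sequencing (10x Genomics, 3' end counting) of dissociated mouse brainstem. A pair of libraries (tumour 1 and tumour 2) came from brainstem of B6(Cg)-Tyrc-2J/J mice, 6 weeks old at implantation, that had received 100000 cells of the murine diffuse midline glioma line DIPG4423 in the brain and were left untreated for 3 weeks. The third library (normal) came from brainstem of the same mouse strain with no tumour. The grafts are described as syngeneic and come from a single cell line. The comparison asks how resident immune cells of a tumour-bearing brainstem differ from those of a normal one.

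Microglia are the resident macrophages of the brain parenchyma. In the healthy brain they carry a set of receptors, surface proteins and transcription factors that blood-derived macrophages carry little or not at all, and loss of this set is a widely used description of microglia in injury, degeneration and tumours. TGF-beta signalling, PU.1 (Spi1) and MEF2 factors are known to maintain it. P2ry12 and P2ry13 are G protein-coupled receptors for ADP, and Gpr34 is a related receptor for lysophosphatidylserine. Tmem119 is a transmembrane protein used to label microglia. Siglech is a surface receptor of the Siglec lectin family that signals through adaptor proteins, and Fcrls is an Fc receptor-like scavenger receptor. Olfml3 is a secreted glycoprotein. Sall1 and Mef2c are transcription factors.

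On GRCm38 (mm10), P2ry13 lies at chr3:59207892-59210882 and P2ry12 at chr3:59216272-59262871, neighbours on the minus strand, and Fcrls at chr3:87250758-87263738 and Olfml3 at chr3:103722222-103738001 lie on the same chromosome and strand. The others are at chrX:13632089-13640858 (Gpr34, plus strand), chr5:113793729-113800516 (Tmem119, minus), chr8:89027235-89044162 (Sall1, minus), chr7:55768178-55778925 (Siglech, plus) and chr13:83504034-83667080 (Mef2c, plus). All 9 are annotated as protein-coding. RefSeq promoter windows on GRCm38.p6 were found for 7 of the 9, Gpr34 and Tmem119 being the others. The 250 bases before the annotated start are shown for 2 pairs of genes, chosen by their levels summed over all microglia-like cells. P2ry12 (chr3:59262986-59263235, minus strand) and P2ry13 (chr3:59210883-59211132, minus) fell together there in the tumour libraries. Fcrls (chr3:87263525-87263774, minus) and Olfml3 (chr3:103738002-103738251, minus) did not follow them in that sum, although Fcrls fell within 1 cluster, as given below. Capitals mark the PU.1 core GAGGAA.
P2ry12: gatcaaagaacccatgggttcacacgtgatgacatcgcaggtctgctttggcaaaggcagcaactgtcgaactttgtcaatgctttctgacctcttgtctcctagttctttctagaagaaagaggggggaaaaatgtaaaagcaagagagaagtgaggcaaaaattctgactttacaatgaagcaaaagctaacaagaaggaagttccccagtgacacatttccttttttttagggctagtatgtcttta
P2ry13: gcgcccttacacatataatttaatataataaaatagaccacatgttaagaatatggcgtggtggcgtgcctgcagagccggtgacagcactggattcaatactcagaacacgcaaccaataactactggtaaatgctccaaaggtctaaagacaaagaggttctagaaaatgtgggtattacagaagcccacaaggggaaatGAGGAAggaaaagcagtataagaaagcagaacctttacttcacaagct
Fcrls: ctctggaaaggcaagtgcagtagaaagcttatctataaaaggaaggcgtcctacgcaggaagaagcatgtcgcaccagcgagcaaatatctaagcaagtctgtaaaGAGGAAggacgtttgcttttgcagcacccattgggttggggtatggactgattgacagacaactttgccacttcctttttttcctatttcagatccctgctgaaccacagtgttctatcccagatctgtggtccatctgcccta
Olfml3: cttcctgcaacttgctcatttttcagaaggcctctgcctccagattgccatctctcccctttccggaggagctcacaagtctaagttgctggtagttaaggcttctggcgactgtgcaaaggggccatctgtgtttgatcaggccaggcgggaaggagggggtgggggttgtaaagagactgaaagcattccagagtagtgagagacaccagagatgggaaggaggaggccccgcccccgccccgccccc
Read on both strands, GAGGAA is present in the windows of P2ry13 (48 to 43 bases before the start) and Fcrls (144 to 139 bases before it), and in 2 of the 3 start windows of Mef2c. It is not in those of P2ry12, Olfml3, Siglech or Sall1. Of all 32851 RefSeq windows of this length 23.3% hold it. The motifs CTA and TAG with 4 bases between (MEF2, in 3.20% of all windows), GTCTAG (SMAD, 7.11%) and GGAA and GAAA with 2 bases between (an ETS and IRF composite, 2.30%) are in none of the 11 start windows of the 7 genes, and TGANTCA (AP-1, 6.75%) is in 1 of Mef2c. No window holds more than 1 of these matches, so none overlap.

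The tumour 1, tumour 2 and normal libraries held 12118, 10728 and 4354 barcodes with 151906460, 157114723 and 15035292 UMIs (unique molecular identifiers, 1 per captured transcript). The cell filter left 10541, 9390 and 3077 cells at median depths of 8788, 11287 and 2394 UMIs, so the normal library is the shallowest. The mitochondrial limit was exceeded by 9.71%, 9.57% and 26.3% of barcodes. The tumour libraries shared 37 cell barcodes with each other, and 16 and 13 with the normal library. Levels below are UMIs summed over the cells of a class and scaled to 1000000 UMIs of that class (CPM). With 1 normal library there is no spread between normal animals. The titles number the tumour samples as mouse 1 and mouse 2, and no label says whether they share a litter, day or run. The p-values thus carry only the spread between these 2 tumour samples, each gene's own together with that pooled over genes. This spread may be technical. With 2 libraries against 1, the smallest p of an exact permutation test is 1 in 3.

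Cells were clustered with the 9 genes left out of the variable genes and named from marker lists that do not hold them. A cluster was called microglia-like from 8 markers, among them Cx3cr1, Sparc, Slc2a5, Adgrg1, Crybb1, Trem2 and Selplg, and all 8 were detected in each of the 5 clusters so named. Microglia-like cells numbered 3194, 3383 and 738 in tumour 1, tumour 2 and normal, at medians of 4016, 8159 and 1639.5 UMIs. Different clusters hold most of this class in each library. Cluster 8 (leading genes among them Slc2a5, Cx3cr1 and Selplg) held 93.5% of normal microglia-like cells, against 0.971% in tumour 1 and 20.7% in tumour 2. Cluster 6 (Tlr7, Havcr2 and Slco2b1) held 51.1% in tumour 1 and 4.29% in tumour 2. Cluster 7 (Lag3, Ccl4, Gpr84 and Cst7) held 25.8% and 55.2%, cluster 0 (Hmox1, Ftl1, Cst7, Igf1 and Spp1) 16.4% and 14.4%, and cluster 1 (histone genes and Mki67) 5.70% and 5.44%. Macrophage-like cells, named from border macrophage markers such as Mrc1, Pf4 and Ms4a7, numbered 634, 1425 and 36. Normal macrophage-like cells, all in cluster 14, sum to 125395 UMIs, so their values carry wide counting intervals.

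The label of the set held in these data. Microglia-like cells, 24.0% of normal cells, held 84.1% to 96.6% of the normal library's UMIs of 8 of the 9 genes, and 63.3% of those of Mef2c. After each cell was thinned to 1000 UMIs, normal microglia-like cells had a UMI of 6.17 of the 9 genes on average, and 92.9% of them had 4 or more. Neuron-like cells had 0.122 per cell in the normal library and 0.0778 and 0.173 in tumour 1 and tumour 2. They did not lack the 9 genes evenly. In the normal library Mef2c stood highest in them, at 63.7 CPM (147 UMIs), and Gpr34 came next at 14.3 CPM. In tumour 1 and tumour 2 microglia-like cells the mean was 3.32 and 3.98, and 47.1% and 60.4% of cells had 4 or more. Thinning left out 147, 49 and 158 microglia-like cells below 1000 UMIs in tumour 1, tumour 2 and normal. Without thinning, at the unequal depths above, the means were 6.56, 7.91 and 6.82.

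**Figure D1:**
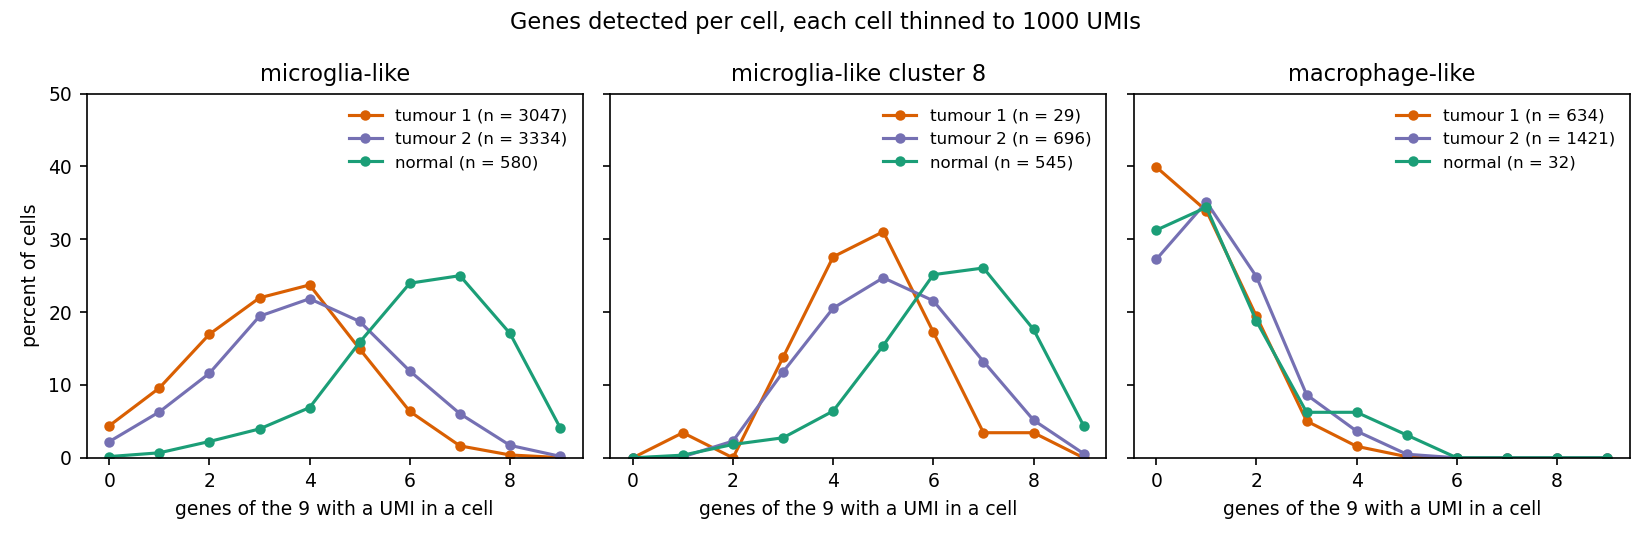
Number of the 9 genes with at least 1 UMI in a cell (x axis) against the percent of cells (y axis), each cell thinned to 1000 UMIs, for microglia-like cells, their cluster 8 and macrophage-like cells, with 1 line per library and the number of cells in the key. Normal microglia-like cells peak at 7 genes and those of both tumour libraries at 4, and the normal line stays to the right within cluster 8.

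The 3 G protein-coupled receptors showed the widest gap between tumour-bearing and normal microglia-like cells. P2ry12 had 658 CPM in tumour 1, 726 CPM in tumour 2 and 2971 CPM in normal. P2ry13 stood at 213, 199 and 773 CPM, and Gpr34 at 546, 643 and 2673 CPM. For each of the 3 receptors, both tumour libraries lay close to each other and well under the normal library. Fitted with edgeR's quasi-likelihood test on the summed counts, Gpr34 was 3.03-fold lower in tumour (log2 change -1.60, SE 0.30, adjusted p = 0.00640), P2ry12 2.90-fold lower (-1.53, SE 0.30, adjusted p = 0.00751) and P2ry13 2.54-fold lower (-1.35, SE 0.24, adjusted p = 0.00451). The fitted folds are smaller than the CPM ratios because TMM scaling factors were 0.926, 0.832 and 1.30 in tumour 1, tumour 2 and normal. The median of all 15002 genes tested was 0.11 (log2) with TMM and -0.46 with library size alone, and the receptors' changes with library size alone were -2.10 (P2ry12), -1.91 (P2ry13) and -2.17 (Gpr34). With either tumour library left out, the 3 changes stayed between -1.32 and -1.81.

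Among the surface and secreted proteins, Tmem119 fell and the others did not pass the test. Tmem119 had 439 CPM in tumour 1, 529 CPM in tumour 2 and 1385 CPM in normal (log2 change -0.95, SE 0.29, adjusted p = 0.0445). That call is close to the threshold, and its adjusted p was 0.0646 at clustering resolution 2.0, 0.0536 with the 9 genes allowed among the variable genes and 0.0683 with the higher naming score that leaves cluster 0 unnamed. Siglech stood at 632, 626 and 1684 CPM (-0.86, SE 0.28, adjusted p = 0.0554). It passed with DESeq2 size factors in edgeR (adjusted p = 0.0434), with DESeq2's Wald test (0.0268) and with library size alone (0.000700). Olfml3 and Fcrls separate the tumour libraries from each other. Olfml3 had 347 CPM in tumour 1, 820 CPM in tumour 2 and 1081 CPM in normal (-0.29, SE 0.47, adjusted p = 0.694). Fcrls stood at 578, 1274 and 1220 CPM (0.19, SE 0.47, adjusted p = 0.800), tumour 2 and normal being near each other. Without tumour 1 the fitted change was 0.69 for Fcrls and 0.23 for Olfml3, and without tumour 2 it was -0.59 and -1.15. The sign of both fitted changes thus rests on which tumour library is used. For Olfml3 it also rests on the TMM scaling, since its CPM was under normal in both tumour libraries.

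The transcription factors lay lower in both tumour libraries without passing the test. For Sall1 the 3 libraries gave 190, 199 and 428 CPM (log2 change -0.57, SE 0.24, adjusted p = 0.115). Mef2c stood at 719, 704 and 1803 CPM (-0.78, SE 0.28, adjusted p = 0.0809). Both passed with library size alone (adjusted p = 0.00194 and 0.000968).

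In all, 4 of the 9 genes were lower and 0 were higher in microglia-like cells of the tumour libraries, where 7.49% of the 15002 genes tested were called lower and 14.7% higher. At an unadjusted p under 0.05, 7 were lower and 0 higher. The set's median change was -0.86. DESeq2 called 5 lower and 0 higher, and library size alone 7 lower. Thinning each cell to 1000 UMIs ended all 4 calls, with adjusted p between 0.0712 and 0.148 for those 4 and changes of -0.88 to -1.73, and left 1 gene called of 11765 in the whole table. Beside these counts, summed markers of other cell types in microglia-like cells of tumour 1, tumour 2 and normal were 31, 30 and 16 CPM for macrophages (1, 1 and 5 of the 8 markers at 0), 39, 29 and 731 CPM for neutrophils, 98, 129 and 1142 CPM for neurons and 146, 69 and 6 CPM for glial progenitors. Cell cycle genes summed to 945, 819 and 152 CPM and dissociation stress genes to 1940, 1206 and 1193 CPM. Their part in the result was not tested.

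**Figure D2:**
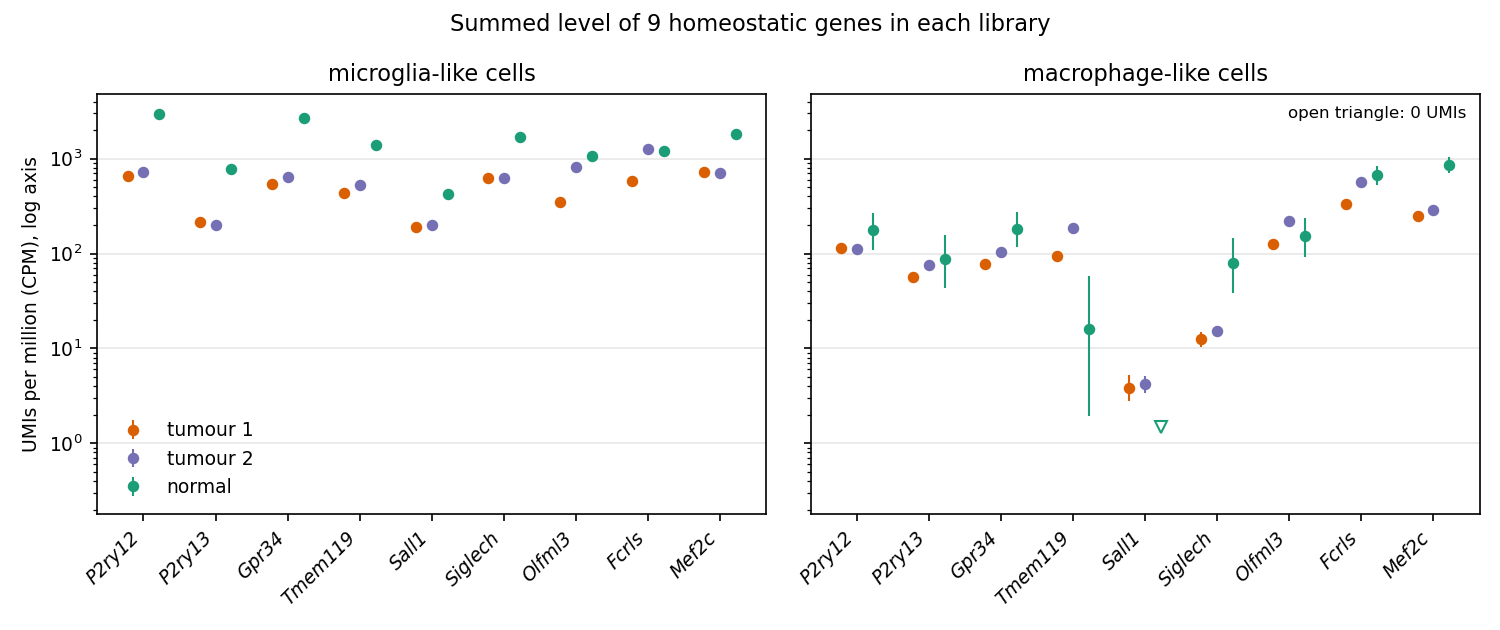
Level of each of the 9 genes (x axis) in CPM (y axis, log scale) in microglia-like cells on the left and macrophage-like cells on the right, 1 point per library with its exact 95% Poisson interval, which covers counting error only. In microglia-like cells the normal point lies above both tumour points for every gene except Fcrls, where tumour 2 is at 1274 CPM and normal at 1220.

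The genes were then followed through the microglia-like clusters of the tumour libraries, as a description, since clusters are no test against each other. P2ry12, Tmem119 and Siglech had the same order in both tumour libraries, cluster 8 highest, then 6, 7, 1 and 0. For P2ry12 in tumour 2 the levels along that order were 1772, 1232, 705, 486 and 294 CPM, and in tumour 1 they were 1504, 1279, 554, 341 and 214 CPM. In tumour 1, clusters 8 (31 cells) and 6 overlapped in their 95% counting intervals for these 3 genes, and in tumour 2 no neighbours did. From the highest to the lowest cluster, P2ry12 differed 7.04-fold in tumour 1 and 6.02-fold in tumour 2, Tmem119 7.51-fold and 5.38-fold, and Siglech 6.05-fold and 5.28-fold. Sall1 followed the same order (5.11-fold and 3.07-fold), with neighbours among clusters 8, 6 and 7 overlapping in tumour 2. P2ry13 did too, at 600, 386, 185, 107 and 92.6 CPM in tumour 1 and 406, 382, 196, 131 and 117 CPM in tumour 2. Its clusters 1 and 0 overlapped in both tumour libraries, and clusters 8 and 6 in tumour 2. Gpr34 spanned less, 2.54-fold and 2.82-fold, its highest tumour cluster standing at 828.5 and 1137 CPM against 2769 in normal cluster 8. Mef2c was lowest in cluster 0 in both tumour libraries (351 and 435 CPM).

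Fcrls had another order. It was highest in cluster 7, at 760 CPM in tumour 1 and 1412 in tumour 2, although in tumour 1 cluster 1 (743 CPM) overlapped it. Its lowest levels were in clusters 6 (213 and 696 CPM) and 8 (251 and 688 CPM), whose intervals overlapped in both libraries. In cluster 0, where P2ry12 stood at 6.88% and 9.47% of its level in normal cluster 8, Fcrls stood at 48.8% and 86.9% of its own. Olfml3 was highest in cluster 7 in tumour 1 (462 CPM) and in clusters 1 and 7 in tumour 2 (880 and 872 CPM, overlapping), and its span was narrow, 1.94-fold and 1.50-fold. Over the 17 sums of a microglia-like or macrophage-like cluster in 1 library with at least 20 cells, Fcrls had a Pearson r of 0.30 with the mean of the other 8 genes (standardised log2(CPM + 1)), and the other 8 had between 0.83 and 0.97. These sums share 3 libraries and their depth.

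**Figure D3:**
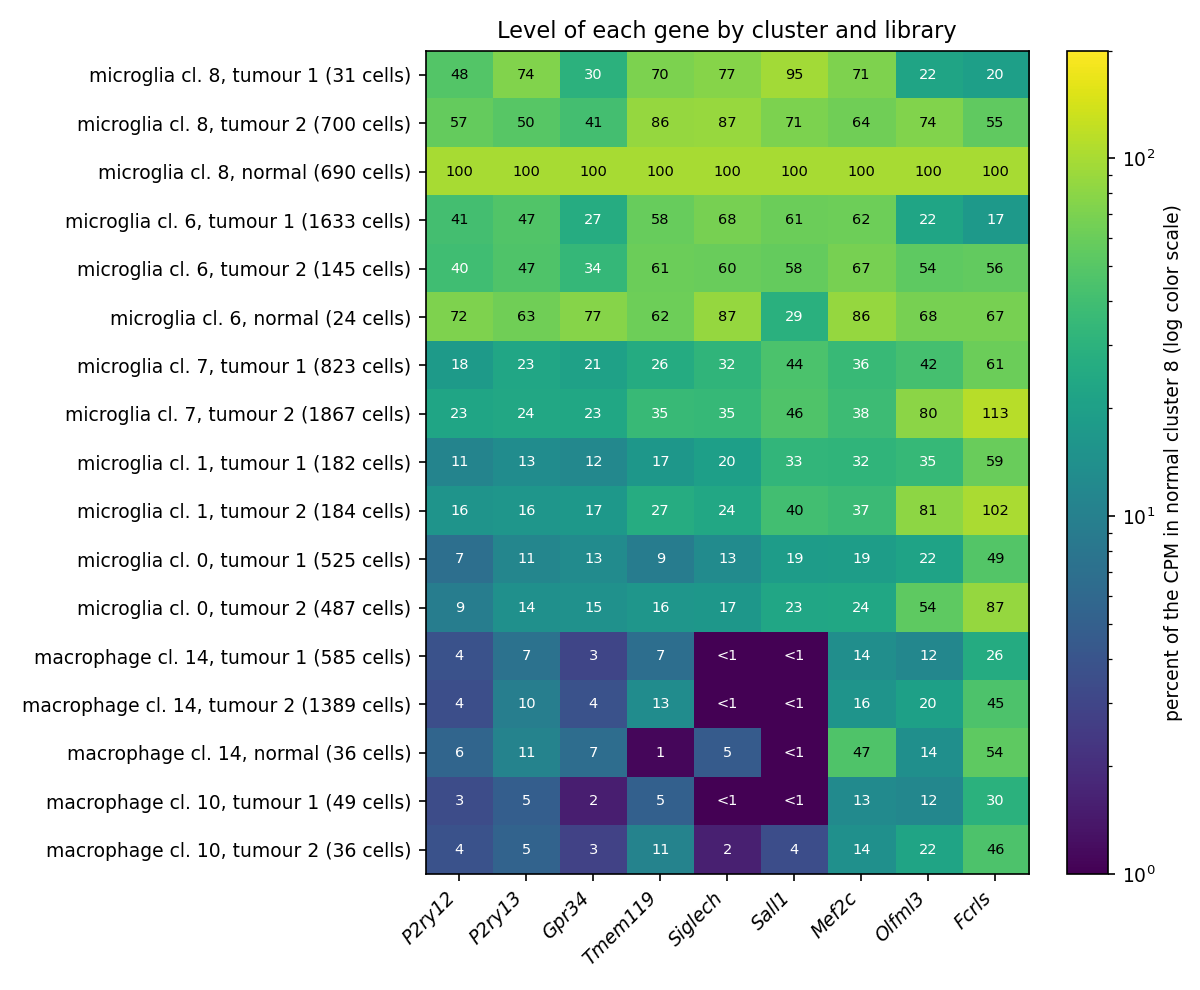
Percent of each gene's CPM in normal cluster 8 (color, log scale, with the number in the cell) by cluster and library, for sums of at least 20 cells, the cell number given at the left. The first 7 columns are lower in cluster 0 than in cluster 8 in both tumour libraries, while Fcrls is at 113% in cluster 7 of tumour 2 and 17.0% in cluster 6 of tumour 1.

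Fcrls and Olfml3 also differed between the tumour libraries in every microglia-like cluster. Olfml3 was 2.36-fold and Fcrls 2.20-fold higher in tumour 2 than in tumour 1 over the class, and the other 7 genes were at 0.937-fold to 1.20-fold. Of 5882 genes with at least 20 CPM in both, 8 had a ratio as high as that of Olfml3 and 12 as high as that of Fcrls, and the median ratio was 0.946. By cluster, the Fcrls ratio was 1.78 (cluster 0), 1.72 (cluster 1), 3.26 (cluster 6), 1.86 (cluster 7) and 2.75 (cluster 8). The Olfml3 ratio was 2.48, 2.29, 2.40, 1.89 and 3.35 in the same order. In macrophage-like cells the ratios were 1.69 for Fcrls and 1.77 for Olfml3. A difference in this direction was not particular to them. Tmem119 had 93.7 and 188 CPM in macrophage-like cells of tumour 1 and tumour 2. In microglia-like clusters it had 135 and 232 CPM (cluster 0), 240 and 388 (cluster 1), 842 and 877 (cluster 6), 377 and 511 (cluster 7) and 1014 and 1247 (cluster 8). P2ry12 had 214 and 294 CPM in cluster 0, 341 and 486 in cluster 1 and 554 and 705 in cluster 7. In cluster 8 P2ry12 had 1504 and 1772 CPM, but in cluster 6 1279 and 1232. P2ry13 in cluster 8 went the other way, at 600 and 406 CPM. The ratios over the class mix clusters whose shares differ between the libraries. With 1 library on each side these values compare 2 libraries and have no replicate check. Erythroid markers, summing to 16 CPM in tumour 1 and 220 in tumour 2 microglia-like cells, differ between the same libraries, and their part was not tested.

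Cluster 8, which held most normal microglia-like cells, allowed a comparison within 1 cluster (31, 700 and 690 cells). Gpr34 had 828.5, 1137 and 2769 CPM (edgeR log2 change -1.43, SE 0.30, adjusted p = 0.000241). Fcrls stood at 251, 688 and 1251 CPM (-1.20, SE 0.31, adjusted p = 0.00653). These 2 of the 9 genes fell and 0 rose, where 2.04% of 10580 genes tested were called lower and 2.02% higher, and at an unadjusted p under 0.05 the counts were 5 lower and 0 higher. P2ry12, at 1504, 1772 and 3107 CPM, had an adjusted p of 0.0535 (-0.89, SE 0.29). Tmem119 (1014, 1247 and 1446 CPM, adjusted p = 0.721), Sall1 (425, 317 and 447 CPM, 0.760) and Siglech (1341, 1522 and 1739 CPM, 0.779) stood nearer to normal there. With DESeq2 size factors or library size alone, 4 of the 9 genes were lower, P2ry12 and Olfml3 joining. Without tumour 1, whose 31 cells give 91732 UMIs, the change of Fcrls was -0.76 and that of Gpr34 -1.18, and without tumour 2 they were -2.41 and -1.83. The prior degrees of freedom of this fit were infinite, so its p-values rest wholly on a spread pooled over genes. Dissociation stress genes summed to 4404, 2822 and 1164 CPM in this cluster and neutrophil markers to 22, 35 and 738 CPM, and their part was not tested. Cluster 6, with 24 normal cells, gave 0 calls among the 9 genes (0 also at an unadjusted p under 0.05, and 0 with DESeq2 size factors in edgeR), where 0% of 8263 genes were called higher and 0.0726% lower.

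**Figure D4:**
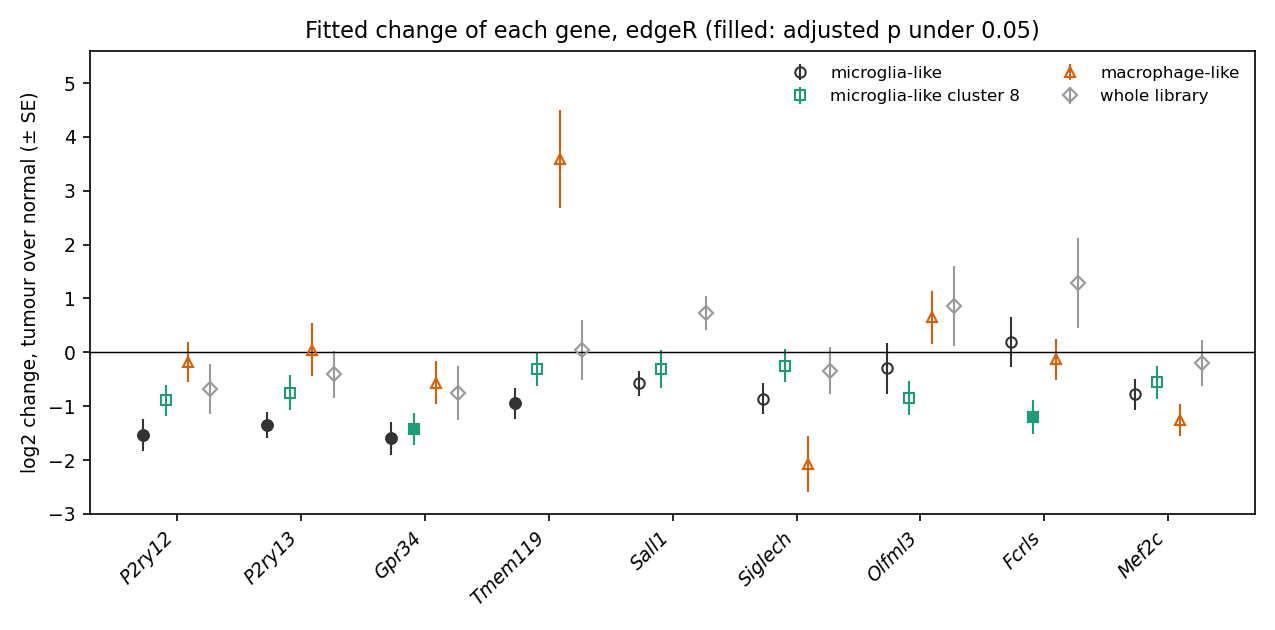
Log2 change of tumour over normal for each gene (y axis, bars are the SE of the fit) in microglia-like cells, their cluster 8, macrophage-like cells and the whole library. Filled symbols passed edgeR at an adjusted p under 0.05, and Sall1 has no macrophage-like value because the normal cells had 0 UMIs and both tumour levels are under the 23.9 CPM that this allows. Gpr34 is the only gene filled in both the microglia-like class and cluster 8, at -1.60 and -1.43.

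Macrophage-like cells carried the set unevenly. In tumour 1 and tumour 2 they stood at 57.7% and 44.3% of the microglia-like level of the same library for Fcrls, 34.4% and 40.7% for Mef2c, 36.2% and 27.1% for Olfml3, 26.7% and 38.4% for P2ry13, 21.4% and 35.5% for Tmem119, 17.6% and 15.4% for P2ry12 and 14.2% and 16.3% for Gpr34. Siglech (1.97% and 2.44%) and Sall1 (2.04% and 2.10%) stood apart at the bottom. Free RNA in droplets can give all classes a low share. In tumour 2 neuron-like cells all 9 genes lay between 3.63% and 6.44% of the microglia-like level. Siglech and Sall1 in macrophage-like cells of tumour 2 were below the neuron-like shares, and the other 7 genes were above them. The median depths differ, 2144 UMIs in neuron-like and 15676 in macrophage-like cells, so the neuron-like shares are no measured background for macrophage-like cells. Whether macrophage-like cells express Siglech or Sall1 was not tested. In tumour 1 neuron-like cells stood at 0.553% for Siglech and 2.76% for Sall1. With doublets kept, Siglech in macrophage-like cells of tumour 2 stood at 27.3 CPM in place of 15.3.

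Macrophage-like cells of the tumour libraries were compared with the 36 normal ones. Mef2c had 247, 286 and 861 CPM in tumour 1, tumour 2 and normal (log2 change -1.25, SE 0.30, adjusted p = 0.0501). Siglech stood at 12.4, 15.3 and 79.7 CPM, the last from 10 UMIs (-2.08, SE 0.52, adjusted p = 0.0591). Tmem119 went the other way, at 93.7 and 188 CPM against 15.9 CPM from 2 UMIs in normal. Pooled over both tumour libraries that is 9.93 times the normal level, the 95% counting interval running from 2.75 to 82.0 (edgeR adjusted p = 0.0611). Fcrls, at 334, 565 and 670 CPM, P2ry12, at 116, 112 and 175 CPM, and the other genes had adjusted p-values of 0.514 or more. For Sall1 the normal cells had 0 UMIs, which allows up to 23.9 CPM, above the 3.87 and 4.19 CPM of the tumour libraries, so no fold is given.

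By edgeR 0 of the 9 genes passed in macrophage-like cells (1 higher and 2 lower at an unadjusted p under 0.05), where 1.22% of 12794 genes were called higher and 1.33% lower. DESeq2 called 1 higher, Tmem119, and 1 lower, Mef2c, and over the alternatives 0 to 1 were called higher and 0 to 2 lower. Normal macrophage-like cells also held more neutrophil markers (66, 36 and 2129 CPM in tumour 1, tumour 2 and normal), monocyte markers (429, 478 and 2672 CPM) and B cell markers (19, 24 and 566 CPM), whose part was not tested. The change in macrophage-like cells minus that in microglia-like cells, tested as an interaction, was 4.74 for Tmem119 (SE 0.70, adjusted p = 0.0878), which rests on 2 UMIs in normal macrophage-like cells. For P2ry12 it was 1.64 (SE 0.33, adjusted p = 0.176) and for Fcrls 0.04 (SE 0.31, adjusted p = 1). The median of all 15404 genes in this test was 0.62. With edgeR 0 of the 9 genes passed it (5 at an unadjusted p under 0.05, all with the higher change in macrophage-like cells), where 0% of genes had a higher and 0.11% a lower change in macrophage-like cells. With library size alone 2 passed, P2ry12 and Tmem119, and with no filter on low counts 4 did.

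Outside these classes the places differed between genes, with an exception. In endothelial-like cells of tumour 2 all 9 genes stood together, at 27.3% or more of the microglia-like level, as given at the end. P2ry13 was found in neutrophil-like cells, at 73.2 CPM in tumour 1, 116 in tumour 2 and 12.5 in normal. In neutrophil-like cluster 11 alone (288, 476 and 195 cells) it stood at 91.4, 133 and 38.7 CPM with 95% counting intervals of 69.0 to 119, 114 to 154 and 22.1 to 62.9. P2ry12 in the same cells stood at 45.7, 64.1 and 9.68 CPM. Relative to microglia-like cells, neutrophil-like cells carried 34.4% and 58.3% for P2ry13 and 5.38% and 8.83% for P2ry12 in tumour 1 and tumour 2. Mef2c, a factor also known from B cells and endothelium, stood at 719, 1016 and 707 CPM in B cell-like cells. The first of these values rests on 29 UMIs in 20 cells of tumour 1. In mural-like cells of the tumour libraries Mef2c stood at 170 and 164 CPM. Siglech, known also from plasmacytoid dendritic cells, stood at 422 CPM in the granulocyte precursor-like cluster of tumour 2 (55 cells) and 173 CPM in that of normal (273 cells). In dendritic-like cells of tumour 2 it stood at 67.3 CPM.

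Sall1 was also found in glial classes. Glial progenitor-like cells (4400, 2102 and 0 cells in tumour 1, tumour 2 and normal) had 40.8 CPM of it in tumour 1 and 44.3 in tumour 2. This class was named from Pdgfra, Olig1, Olig2, Sox10, Cspg4 and C1ql1. Astrocyte-like cells had 32.9, 45.8 and 30.8 CPM of Sall1. Glial progenitor-like cells held 50.1% of the Sall1 UMIs of tumour 1 and 28.2% of those of tumour 2, and microglia-like cells 47.1% and 68.1%, against 90.0% in normal. In the same class Olfml3 had 26.7 and 29.9 CPM, and the class held 23.8% of its UMIs in tumour 1. Fibroblast-like cells had 96.7 CPM of Olfml3 in tumour 2 (23 UMIs in 30 cells) and 65.5 in normal (14 UMIs in 50 cells). Tmem119 stood at 78.5 and 24.0 CPM in mural-like cells of the tumour libraries. In fibroblast-like cells of tumour 2 and normal it stood at 71.5 and 84.2 CPM, from 17 and 18 UMIs.

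**Figure D5:**
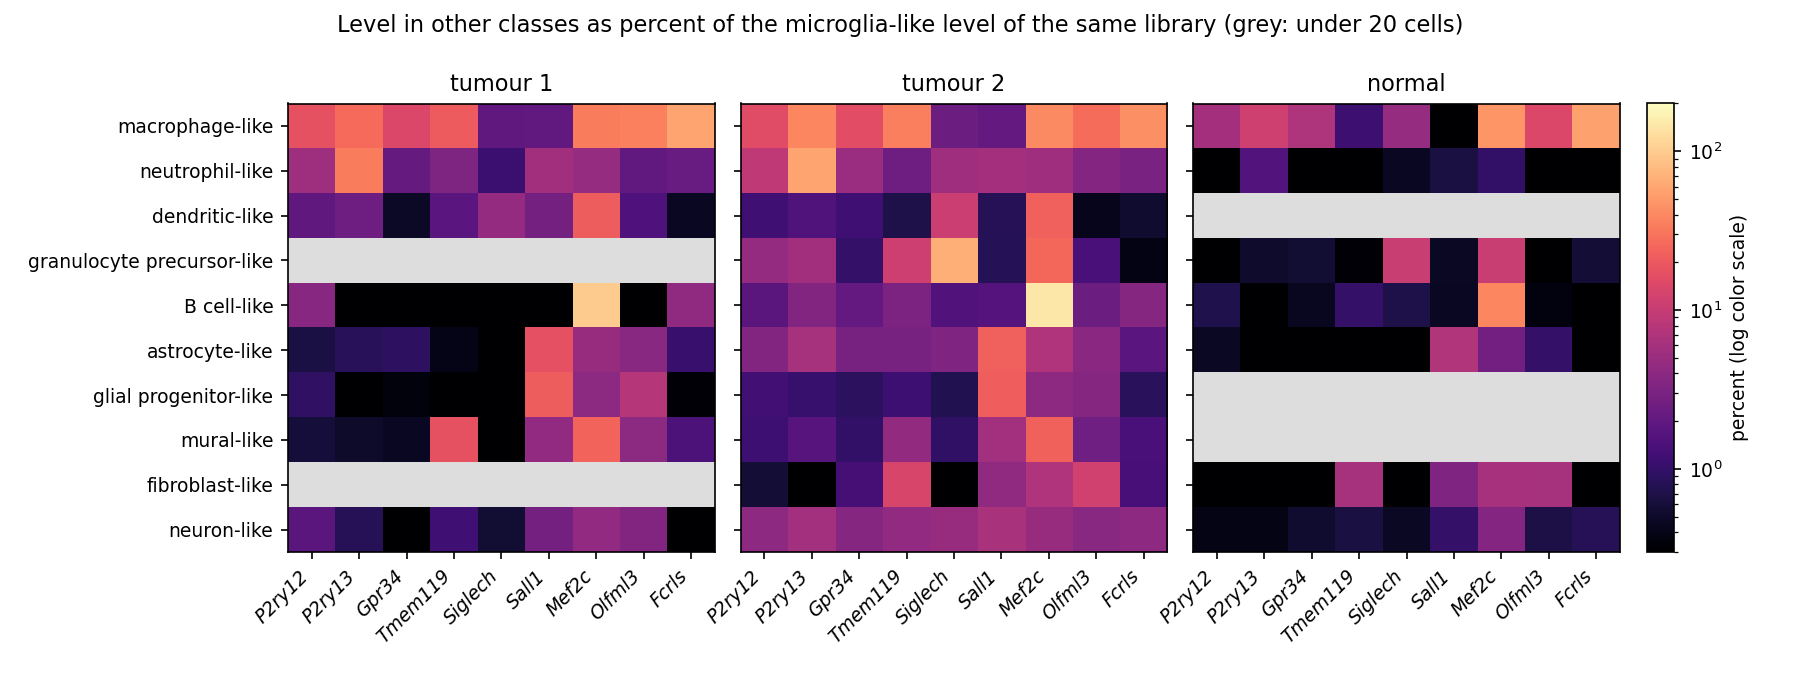
Level of each gene in 10 other classes as percent of the microglia-like level in the same library (color, log scale), 1 panel per library, grey where a class had under 20 cells and black at or under the low end of the scale. Bright cells in the tumour libraries include P2ry13 in neutrophil-like cells (34.4% and 58.3%) and Mef2c in B cell-like cells (100%, from 29 UMIs, and 144%). Siglech in granulocyte precursor-like cells of tumour 2 (67.5%) and Fcrls in macrophage-like cells (57.7%, 44.3% and 54.9% in tumour 1, tumour 2 and normal) are others. Sall1 in glial progenitor-like cells is less bright (21.5% and 22.2%). Endothelial-like cells are not drawn.

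Summed over all cells of a library, 0 of the 9 genes passed edgeR (0 at an unadjusted p under 0.05, and 0 with DESeq2), where 12.8% of 20466 genes were called higher and 8.21% lower. In such sums fewer cells of a type and less RNA per cell cannot be told apart. Library-wide, P2ry12 had 108.5, 202 and 369 CPM (log2 change -0.68, SE 0.46, adjusted p = 0.337), and Fcrls at 111, 411 and 161 CPM (1.29, SE 0.84, adjusted p = 0.313). Gpr34 passed with library size alone (-1.34, adjusted p = 0.0488). Microglia-like cells made up 30.3%, 36.0% and 24.0% of the cells in tumour 1, tumour 2 and normal, but glial progenitor-like cells, at medians of 15748 and 21741.5 UMIs, contributed 99497081 of 140396189 UMIs in tumour 1 and 65567750 of 145646186 in tumour 2.

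Other genes around the set were read from lists in microglia-like cells, where 14.7% of all genes tested were called higher and 7.49% lower. Against those shares, the counts of the purine list and of the other short lists with 1 to 3 calls a direction are small numbers from which nothing particular to the list is read. Of 16 other homeostatic microglia genes, 4 fell and 1 rose by edgeR. Upk1b, a uroplakin, fell by 1.88 on the log2 scale (4.53, 4.61 and 24.9 CPM), Selplg, the P-selectin ligand, by 1.35 and Adgrg1, an adhesion receptor, by 1.11. Ltc4s, which makes leukotriene C4, rose by 1.27 (596, 668 and 388 CPM). The list's median was -0.69, and 7 of its genes also served to name the class. With library size alone 12 fell and 1 rose, and DESeq2 gave 6 and 2. Cx3cr1, the fractalkine receptor, stood at 2605, 2708 and 7823 CPM (-0.99, adjusted p = 0.0883).

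Among 11 other purine signalling genes, 1 fell and 2 rose, and the fitted median was 0.71, or 0.48 without the 2 genes at or under the counting floor in both groups. Entpd1 (CD39), which breaks down extracellular ATP, fell by 1.28 (192, 215 and 732 CPM, adjusted p = 0.00716). Kcnk13, a potassium channel, rose by 0.82 (55.0, 58.3 and 47.5 CPM) and Panx1, a release channel for ATP, by 2.18 from 4 UMIs in normal (adjusted p = 0.0429 and 0.0311), and neither passed with library size alone or DESeq2. Of 14 TGF-beta signalling genes, 3 fell and 0 rose (4 and 0 at an unadjusted p under 0.05, and 2 and 0 with DESeq2), with a median of -0.30. Tgfbr1, the type I receptor, fell by 1.35 (504, 544 and 1977 CPM, adjusted p = 0.00973), Itgav, an integrin that activates TGF-beta, by 0.98 and Skil, a repressor of its targets, by 0.76. Of 14 myeloid transcription factors tested, 3 rose and 1 fell, with a median of -0.05. Spi1, which encodes PU.1, rose by 1.17 (285, 289 and 189 CPM, adjusted p = 0.0117), Cebpb by 0.98 (308, 265 and 213 CPM) and Bhlhe40 by 1.99 (4.53 CPM in normal, from 6 UMIs), and Maf fell by 1.10 (462, 519 and 1561 CPM). With library size alone 0 of these factors rose and 7 fell, so the calls for Spi1, Cebpb and Bhlhe40 were lost under that scaling, although their CPM were higher in both tumour libraries.

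Around Siglech, the adaptor genes Tyrobp (3361, 3860 and 1669 CPM, log2 change 1.68, adjusted p = 0.0181) and Hcst (69.5, 57.3 and 23.4 CPM, 1.99, adjusted p = 0.00185) rose while the lectin gene Siglece fell by 0.80. That list of 7 genes had 2 higher and 1 lower, and a median of 0.99. In the CSF1 receptor axis, the ligand gene Csf1 rose by 2.48 (72.8, 155 and 30.9 CPM, adjusted p = 0.0108) and Csf1r did not pass (1530, 1877 and 3256 CPM, adjusted p = 0.492), and DESeq2 called neither. By contrast 15 of 18 disease-associated microglia genes rose and 0 fell (15 and 0 at an unadjusted p under 0.05, 12 and 0 with DESeq2), with a median of 2.44, and 15 rose with library size alone. Cst7, a cystatin, stood at 159, 298 and 6.03 CPM, Fabp5, a lipid carrier, at 698, 673 and 18.9 CPM, and Igf1 at 106, 139 and 8.30 CPM. Gpnmb, from 1 UMI in normal, was at 119 times that level when pooled, the 95% counting interval running from 21.4 to 4708. Of 13 monocyte-derived macrophage genes tested, 9 rose and 0 fell (9 and 0 at an unadjusted p under 0.05, 8 and 0 with DESeq2), with a fitted median of 2.44. With Ms4a7 at its lower bound the median was 2.01. The listed genes Ms4a7, Ccr2 and Mrc1 also served to name other classes. Lyz2 stood at 1343, 1893 and 198 CPM, Ifitm2 at 118, 92.0 and 10.6 CPM and Lgals1 at 122, 77.8 and 7.54 CPM, and Ms4a7 (6.17, 10.8 and 0 CPM) was at least 4.03-fold higher when both tumour libraries were pooled, against a floor of 3 counts in the normal library. Thinning to 1000 UMIs left 0 calls in each of these 8 lists, as in the set itself.

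The 4 genes whose pattern over the 17 sums was most like the mean of the set, among 6592 with a mean of at least 20 CPM, were Asph (r = 0.99), Daglb (0.98), Snn (0.98) and Arhgap5 (0.98). Asph, an aspartyl hydroxylase, ranged from 22.5 to 438 CPM over the sums. The microglia-like class had 159, 206 and 434 CPM of it in tumour 1, tumour 2 and normal (edgeR adjusted p = 0.105).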

How the data were processed

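Single-cell RNA was measured in 2 tumour-bearing and 1 normal mouse brainstem. The authors deposited raw UMI counts (whole numbers, 1 value for each gene in each barcode). The file headers name Cell Ranger 6.1.2, and the submitters' processing notes name the mm10 build. Barcodes were kept with at least 500 UMIs, 300 genes and at most 15% mitochondrial UMIs. Scrublet in scanpy 1.11.5 (expected rate 8%) removed 384, 255 and 52 doublets. Each cell was scaled to 10000 UMIs and logged. Then 2000 variable genes without the 9 members gave 30 principal components, and 15 neighbours fed Leiden clustering (igraph 0.11.9, resolution 1.0). No integration across libraries was applied.

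The members, the 18 marker lists and the 8 pathway lists were chosen with earlier results of these data known. A cluster took the name of the list with the highest mean log2 level over all clusters (0.05 added), at 0.5 or more with 3 markers in 10% of cells, unless its top 10 genes held more markers of a different list, or its UMIs were low and none of its own markers led. The value 0.5, and the limit to lists with 3 detected markers, were set after the clusters had been seen; at 1, cluster 0 would be unnamed. Named genes are the members, up to 4 called genes with the largest change per pathway list in microglia-like cells, and the 5 most like the members; Cx3cr1 and Csf1r were added after their values were seen. Some genes that these rules and lists name are not reported here.

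Counts summed per library and class (at least 20 cells) were tested with edgeR 4.0.16 in R 4.3.3 (filterByExpr, TMM, quasi-likelihood, Benjamini-Hochberg, 0.05), with 1 residual degree of freedom from the tumour pair, the normal library being assumed to vary like the tumour libraries. The prior degrees of freedom, which weigh in the spread pooled over genes, were 8.33 in microglia-like cells, 10.5 in macrophage-like cells and 4.29 in the whole library. The difference between classes had library as a term. DESeq2 1.42.0 was an alternative. On simulated counts for microglia-like cells (15709 genes), edgeR recovered 9.71% of 103 genes changed 2-fold and 56.7% of 97 changed 4-fold, with 4 false among 69 calls. For macrophage-like cells (12773 genes) it recovered 0% of 81 and 8.40% of 119, and for the whole library (21344 genes) 0% of 95 and 27.6% of 105. Intervals are exact 95% Poisson or binomial intervals and, like the floor of 3 counts, cover counting error only. Positions come from GENCODE mouse release M21 and promoter windows from RefSeq.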

Additional observations from a re-analysis of the deposited data

How the results depend on the processing

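In microglia-like cells the 9 genes kept a count of 3 to 5 lower and 0 higher under DESeq2, its size factors, no filter on low counts, doublets kept, the stricter cell filter, resolution 2.0, the genes allowed among the variable genes and a naming score of 1 (added after seeing the data). With library size alone the count lower was 7, and with cells thinned to 1000 UMIs it was 0. Thinned sums hold fewer counts per library. In macrophage-like cells 1 gene was higher with no filter, DESeq2, resolution 2.0 and the genes allowed. There, 1 was lower with library size alone, DESeq2, doublets kept and thinning, and 2 with no filter, resolution 2.0 and the genes allowed. In the whole library 1 was lower with library size alone. In cluster 8, 4 were lower with library size alone and with DESeq2 size factors (both added after seeing the data). For the difference between classes, 2 were higher with library size alone and 4 with no filter. Genes detected per cell without thinning were 6.56, 7.91 and 6.82 in microglia-like and 5.03, 5.42 and 2.56 in macrophage-like cells of tumour 1, tumour 2 and normal. The cause of these shifts was not tested. Levels in microglia-like cells moved by a factor of 0.995 to 1.17 with doublets kept or resolution 2.0. In macrophage-like cells, with Sall1 left out, they moved by 0.828 to 1.79. No paired analysis was possible because the tumour and normal groups share only 1 replicate number, which pairs nothing. The 36 normal macrophage-like cells limit what can be detected there.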

Other observations

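In endothelial-like cells of tumour 2 (63 cells), 8 of the 9 genes lay between 27.3% and 34.8% of the microglia-like level of that library, and Mef2c at 50.8%. In endothelial-like cells of the normal library (143 cells) the same 8 lay between 0.277% and 1.25%, and Mef2c at 15.9%.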
